A study of Mus musculus with 8 samples.

Results

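The 32 genes described here belong to the contractile cytoskeleton and to the transcription programmes that feed it. They were chosen by name, as genes of the actin and myosin apparatus, of focal adhesions, and as targets or regulators of SRF and YAP, and all 32 have a row among the 49492 of the deposited table. All 32 passed the filter on low values (2 or more samples reaching a value of 1), as did 16232 genes in all. The samples were 8 polyA RNA-seq libraries of mouse embryonic fibroblasts (MEFs), embryo-derived connective tissue cells grown in culture, in 4 groups of 2 replicates. Every group came from Pontin f/f MEFs made by the 3T3 protocol, in which Cre virus deleted endogenous Pontin (Ruvbl1, an ATPase of chromatin remodelling complexes) and a lentivirus supplied a Flag-tagged copy. That copy was either wild type (Pontin WT) or a form with 2 arginines changed to alanine (Pontin RA). Each line was kept in normal medium or in glucose-free medium with dialyzed serum (glucose starvation, for a time not given in the sources used here). The serum of the normal medium is not described as dialyzed, so the lack of glucose and a change of serum cannot be told apart. WT and RA are separate stably expressing lines, so the form of Pontin and the line cannot be told apart, and the labels do not say whether replicates were separate cultures. P-values therefore measure the spread between these samples only.

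Fibroblasts pull on their surroundings through bundles of actin and non-muscle myosin that end in focal adhesions. SRF is a DNA-binding factor whose cofactor MRTF (Mkl1 and Mkl2) is held in the cytoplasm by monomeric actin, so that actin polymerization switches on genes for actin, calponins, tropomyosins, transgelin and vinculin through a DNA element called the CArG box. YAP (Yap1) and TAZ (Wwtr1) are co-activators that bind TEAD factors on DNA, enter the nucleus when cells are spread and under tension, and are kept out of it by the LATS kinases of the Hippo pathway. Ctgf, Cyr61, Ankrd1 and Amotl2 are widely used readouts of YAP.

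Promoter sequences of the members were searched for both elements, since the group holds targets of both factors. RefSeq promoter windows (GRCm38.p6, from 250 bases before to 50 after a start site) were matched for 26 of the 32 genes. Tagln, Actb, Tgfb1i1, Tead1, Ctgf and Thbs1 had none. A CArG box stood in the windows of 6 of the 26 genes (23.1%, against 1.81% of 27025 genes with a window). The pattern counted was strictly CCWWWWWWGG, with W for A or T. The TEAD motif, the letters GGAATG on either strand, stood in 13 of 26 (50%, against 16.6%). These shares are descriptions and a match is not a binding site. All 4 YAP targets with a window held the TEAD motif and 0 of the 4 held a CArG box, while Srf itself held 2 CArG boxes. The 250 bases before the start of these 4 YAP targets are shown because all 4 fell in starved WT, with TEAD motifs in capitals (Ankrd1 at chr19:36119845-36120094, minus strand; Cyr61 at chr3:145649986-145650235, minus strand; Amotl2 at chr9:102717554-102717803, plus strand; Axl at chr7:25788734-25788983, minus strand). The motif starts 210 and 123 bases before the start in Ankrd1, 103 in Cyr61, 65 in Amotl2 and 233 in Axl. It was not confined to genes that fell in starved WT. Wwtr1, which rose there by 0.53, and Yap1, not called at 0.07, held it too. These targets were chosen as genes of the YAP pathway, so their motifs are not separate evidence.
Ankrd1: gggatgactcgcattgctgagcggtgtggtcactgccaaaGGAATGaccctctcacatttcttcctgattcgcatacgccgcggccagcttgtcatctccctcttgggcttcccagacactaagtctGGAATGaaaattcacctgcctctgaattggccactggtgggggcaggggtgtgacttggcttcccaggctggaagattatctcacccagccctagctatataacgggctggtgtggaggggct
Cyr61: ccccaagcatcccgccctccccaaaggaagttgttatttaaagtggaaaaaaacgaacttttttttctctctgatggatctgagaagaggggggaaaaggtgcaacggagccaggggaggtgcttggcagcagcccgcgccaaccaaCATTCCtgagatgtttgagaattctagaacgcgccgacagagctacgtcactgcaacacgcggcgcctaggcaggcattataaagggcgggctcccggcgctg
Amotl2: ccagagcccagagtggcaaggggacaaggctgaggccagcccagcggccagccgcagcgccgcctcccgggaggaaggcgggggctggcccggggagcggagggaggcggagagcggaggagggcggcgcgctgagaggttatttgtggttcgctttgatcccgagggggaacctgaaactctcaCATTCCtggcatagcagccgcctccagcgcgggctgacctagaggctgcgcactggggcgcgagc
Axl: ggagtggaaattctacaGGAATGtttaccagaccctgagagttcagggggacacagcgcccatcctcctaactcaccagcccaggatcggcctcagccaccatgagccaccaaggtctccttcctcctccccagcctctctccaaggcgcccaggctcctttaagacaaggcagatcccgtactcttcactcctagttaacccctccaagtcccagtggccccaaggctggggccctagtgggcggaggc

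Srf, Cnn2 and Vcl are shown for the CArG box, in capitals, which starts 82 and 62 bases before the start site in Srf, 56 in Cnn2 and 227 in Vcl (Srf at chr17:46556163-46556412, minus strand; Cnn2 at chr10:79988350-79988599, plus strand; Vcl at chr14:20929148-20929397, plus strand). Vcl also has a TEAD motif in capitals, 143 bases before the start. Of the other members, Myl9, Actg1 and Fhl2 held a CArG box and Acta2, Cald1, Tpm1, Flna, Fblim1, Yap1, Wwtr1 and Lats2 a TEAD motif. Forms that depart from the strict CArG pattern were not counted, among them CCCTATATGG in the Acta2 window. The CArG box and the TEAD motif of Vcl do not overlap.
Srf: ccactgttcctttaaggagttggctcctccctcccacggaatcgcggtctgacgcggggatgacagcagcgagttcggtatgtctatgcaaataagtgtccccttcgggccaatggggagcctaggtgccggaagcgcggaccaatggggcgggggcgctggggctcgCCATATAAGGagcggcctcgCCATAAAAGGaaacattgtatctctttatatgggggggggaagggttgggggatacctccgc
Cnn2: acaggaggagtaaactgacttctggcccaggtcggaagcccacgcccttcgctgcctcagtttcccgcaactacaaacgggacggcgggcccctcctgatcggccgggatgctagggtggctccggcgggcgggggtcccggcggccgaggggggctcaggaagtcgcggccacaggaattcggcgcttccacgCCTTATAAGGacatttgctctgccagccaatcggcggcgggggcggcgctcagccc
Vcl: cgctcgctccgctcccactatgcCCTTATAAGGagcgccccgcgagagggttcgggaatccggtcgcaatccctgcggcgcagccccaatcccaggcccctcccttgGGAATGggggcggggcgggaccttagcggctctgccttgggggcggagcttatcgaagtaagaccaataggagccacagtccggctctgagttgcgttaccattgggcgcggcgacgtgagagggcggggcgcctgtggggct

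Values below are CPM of a library size scaled by the authors, and differences are on the log2(value + 1) scale. Totals of reads recovered from the values ran from 43205841 to 56363034 per sample, and every member had at least 1360 reads in every sample. The fibroblast label was checked first. All 10 fibroblast markers examined were present, with a summed level of 12100 to 12600 in normal medium. This sum was 5970 to 6030 in starved WT and 8200 to 8210 in starved RA, so the markers themselves moved with starvation (by limma 9 of 10 lower in WT and 7 of 10 lower in RA, against 39.2% and 33.7% of all genes). Of the 10, 9 were higher in starved RA than in starved WT (median log2 difference 0.81, 30.8% of all genes higher), and 9 had a higher interaction (median 0.76, 24.5% of all genes). The smooth muscle markers Myh11 and Des reached at most 1.57 and 0.22, while others of that list, given below, were higher. The skeletal muscle factors Myod1 and Myog were at 0 in all samples. Acta1 of the skeletal muscle list rose, with means of 1.8 and 3.9 in WT and 1.98 and 4.56 in RA. Epithelial, endothelial and immune marker lists summed to at most 3.29, 9.43 and 24.3, with Epcam, Krt8, Cldn7, Pecam1, Cdh5, Tie1, Ptprc and Adgre1 below 1 throughout and Cd3e at 0. Other genes on these lists were present and moved. In WT starvation raised Csf1r by 0.80, Cd68 by 0.70, Kdr by 1.31 and Tek by 1.53, and the interaction was lower for Csf1r (-0.42), Cd68 (-0.74) and Tek (-1.24). Cdh1 rose in RA by 0.81 with an interaction of 0.76, and Krt18 was not called in either line. Mean values were low, from 0.24 to 1.17 for Cdh1 in RA and from 0.27 to 2.69 for Tek in WT. The 1 added to values before the log2 shrinks changes at such levels. The smooth muscle list as a whole (6 genes, Lmod1 and Synpo2 among them) summed to 113 to 115 in WT and 105 to 110.0 in RA in normal medium, and to 68 to 71.9 in starved WT and 114 to 115 in starved RA. Of the 5 smooth muscle genes tested 4 fell in WT (39.2% of all genes), and in RA 3 rose and 2 fell (35.0% and 33.7%). Mean values in RA went from 12.44 to 28.82 for Lmod1 and from 10.27 to 30.69 for Synpo2. In the same line Smtn went from 73.34 to 48.81 and Myocd from 10.31 to 4.44. The interaction was higher for 2 of the 5 and lower for 0 (24.5% and 26.1% of all genes). The part of these marker changes in the results below was not tested. In bulk samples, fewer cells of a type and less RNA per cell cannot be told apart.

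Together the 32 genes took 2.61% of the summed values in each WT sample in normal medium and 2.7 and 2.77% in RA. In starved WT they took 1.61 and 1.59%, and in starved RA 3.07% in both samples. Starved WT was thus the only group below normal medium, and starved RA stood above all the others. By limma (BH-adjusted p under 0.05, over all 16232 genes), starvation lowered 24 of the 32 in WT and raised 5, against 39.2% of all genes lower and 39.3% higher (78.6% in either direction). In RA it lowered 6 and raised 21, against 33.7% and 35.0% of all genes (68.7% in either direction). At least 2-fold, 8 members were lower and 1 higher in WT, against 11.7% and 7.84% of all genes. In RA 1 was lower and 1 higher at that size, against 4.58% and 4.44%. The median log2 change of the members was -0.44 in WT and 0.23 in RA, against 0.00 and 0.01 over all genes. The map of members by sample shows the 2 replicates of a group side by side.

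**Figure D1:**
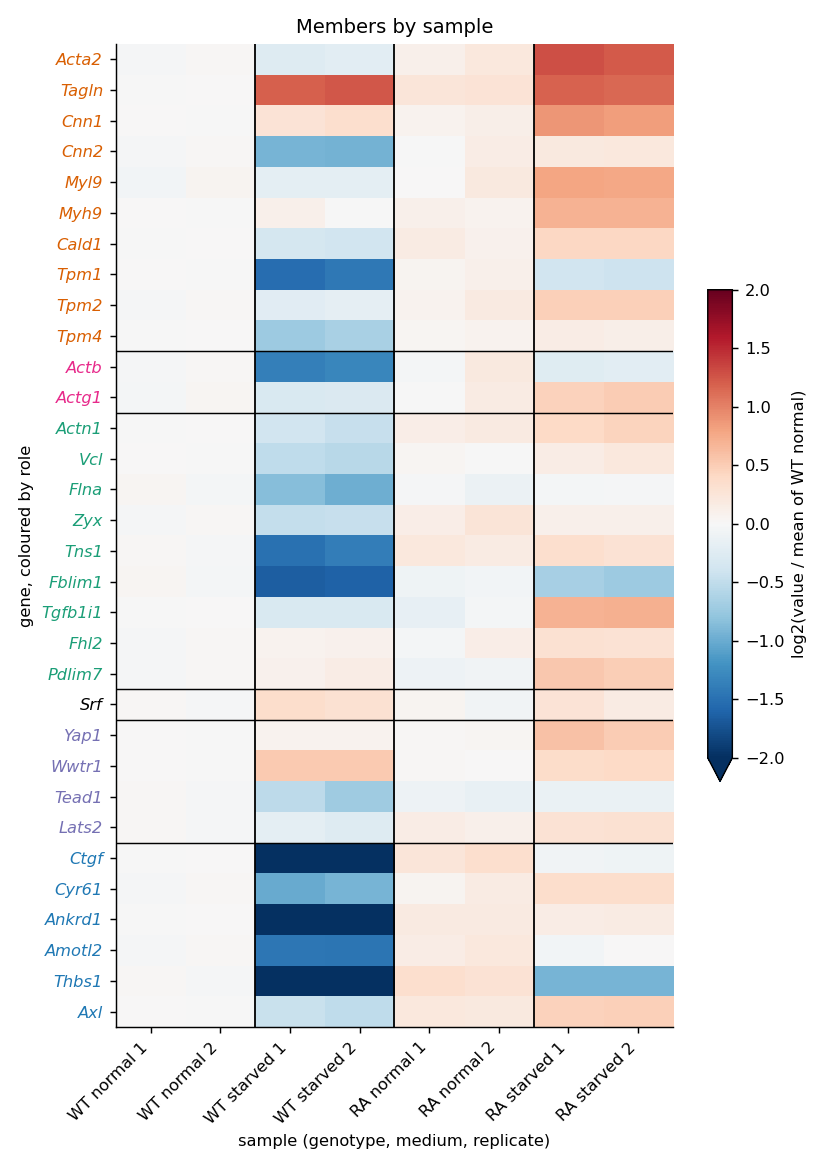
Level of each of the 32 genes (rows, names coloured by role) in each of the 8 samples (columns), as log2 of the value over the mean of the 2 WT samples in normal medium; colour is capped at 2 in either direction. Starved WT is mostly blue, down to Thbs1, Ankrd1 and Ctgf at or past the cap, while starved RA is mostly red, with Thbs1 and Fblim1 the clearest exceptions.

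The WT and RA responses were measured on separate samples, and their calls can be set side by side. There were 13 members lower under starvation in WT and higher in RA (40.6%), a pattern of 488 of all genes (3.01%). They were Acta2, Cnn2, Myl9, Cald1, Tpm2, Actg1, Actn1, Vcl, Tns1, Tgfb1i1, Lats2, Cyr61 and Axl. Another 6 fell in both lines (Tpm1, Actb, Fblim1, Ctgf, Amotl2 and Thbs1), 18.8% of members against 27.3% of all genes. There were 5 that fell in WT and were not called in RA (Tpm4, Flna, Zyx, Tead1 and Ankrd1), 15.6% against 8.88%. Tagln, Cnn1, Pdlim7, Srf and Wwtr1 rose in both, 15.6% against 27.1%. The remaining 3, Myh9, Fhl2 and Yap1, rose in RA and were not called in WT, 9.38% against 4.89%. The rises of Cnn2 and Tns1 in RA were small, 0.13 and 0.12, and were not called without the filter (limma BH-adjusted p = 0.0762 and 0.0597). That of Cnn2 was also lost without RA normal replicate 1 (0.06) and without either RA starved replicate (0.14 and 0.13), and that of Tns1 without RA normal replicate 2 or RA starved replicate 1 (0.10 in both). The WT rise of Pdlim7 was lost without WT normal replicate 1 (0.10) and without WT starved replicate 2 (0.09), with total-read scaling (0.05, limma BH-adjusted p = 0.223) and in edgeR (0.08, BH-adjusted p = 0.06).

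**Figure D2:**
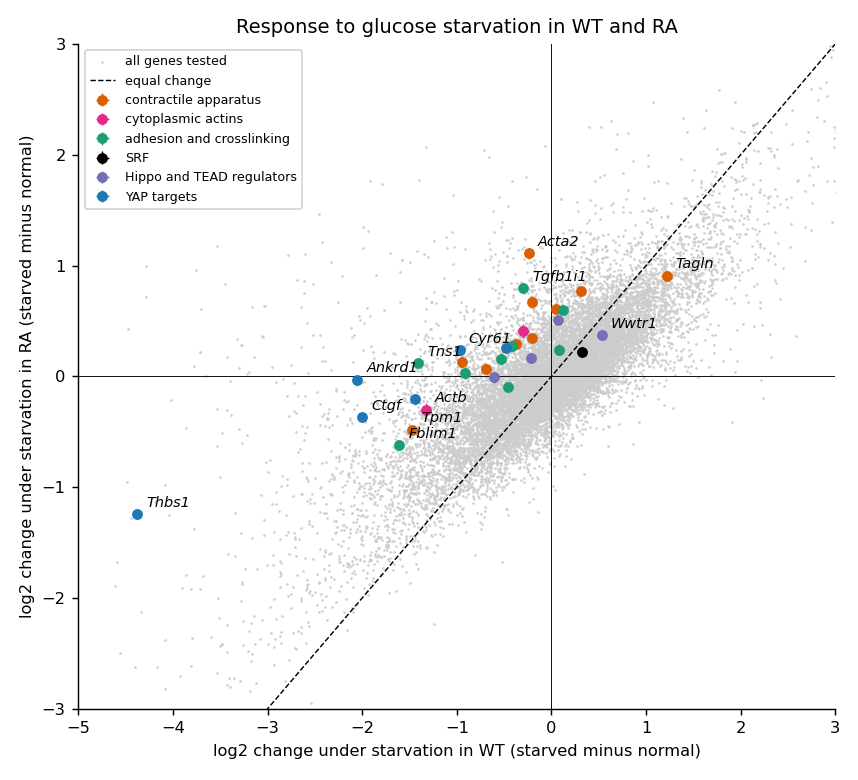
Log2 change under starvation in WT (x axis) against that in RA (y axis), starved minus normal, for the 32 genes coloured by role and for all genes tested in grey; bars are standard errors, mostly hidden by the points, and the dashed line marks equal change. Members lie above the line except Tagln, Wwtr1 and Srf, and 13 are called lower in WT and higher in RA (upper left); grey points beyond the axes are not drawn.

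The 6 YAP targets among the members had the lowest median change in starved WT of the roles examined, -1.72. For the 16 other YAP targets tested, described below, the median was -0.59. All 6 YAP targets were called lower there, 4 of them by at least 2-fold, where 39.2% of all genes fell and 11.7% fell that far. The 10 fibroblast markers had a median of -1.73 in starved WT, with 9 called lower, 6 of them by at least 2-fold. In RA 3 YAP targets fell, 2 rose and Ankrd1 was not called, against 33.7% of all genes lower and 35.0% higher. Thrombospondin 1 (Thbs1), a secreted matrix glycoprotein, was at 2092 and 2022 in the WT samples of normal medium and at 101 and 95.2 in those without glucose. The RA samples had 2585 and 2521, then 1075 and 1079. Each starved group lay below its own normal medium group. The WT samples in the 2 media differed 20.9-fold and the RA samples 2.37-fold. The log2 change was -4.38 in WT (SE 0.0413, limma BH-adjusted p = 1.24e-20) and -1.24 in RA (limma BH-adjusted p = 6.89e-14). Their difference, the interaction (RA response less WT response), was 3.13 with an SE of 0.0584 (limma BH-adjusted p = 1.59e-16).

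Ankrd1, a nuclear ankyrin-repeat protein of muscle and wounded tissue, was at 576 and 580.0 in WT with glucose and at 138 and 139 without it. The RA samples held 654 and 655 in normal medium and 641 and 646 under starvation. Starvation thus moved Ankrd1 by -2.05 in WT (SE 0.0348, limma BH-adjusted p = 4.4e-18), and in RA the change was -0.03 with a 95% interval of -0.10 to 0.05. Connective tissue growth factor (Ctgf, also Ccn2), a matricellular protein, was at 879 and 895 in WT with glucose and at 219 and 223 without, and the RA samples had 1049 and 1119, then 842 and 833. Its changes were -2.0 in WT and -0.37 in RA, and the interaction was 1.63 with an SE of 0.0563 (limma BH-adjusted p = 3.7e-13). The 4 groups of Ctgf did not overlap, and starved WT was the lowest by far.

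Cyr61 (also Ccn1), the close relative of Ctgf, went in the opposite direction in the 2 lines. In WT it went from 525 and 541 to 264 and 278, and in RA from 554 and 600.1 to 677 and 682. The changes were -0.97 in WT (limma BH-adjusted p = 1.32e-12) and 0.24 in RA (limma BH-adjusted p = 0.00012). Axl, a receptor tyrosine kinase for Gas6, also fell in WT and rose in RA, from 645 and 639.6 to 469.8 and 451 in WT and from 746 and 736 to 882 and 892 in RA. Amotl2, a scaffold that binds YAP, went from 334 and 344 to 125 and 123 in WT and from 374 and 391 to 325 and 339.5 in RA. Starved WT was the lowest group for all 6 genes, in both samples. The same held for the fibroblast markers other than Vim and Fn1, and the share of all genes with this order was not counted.

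**Figure D3:**
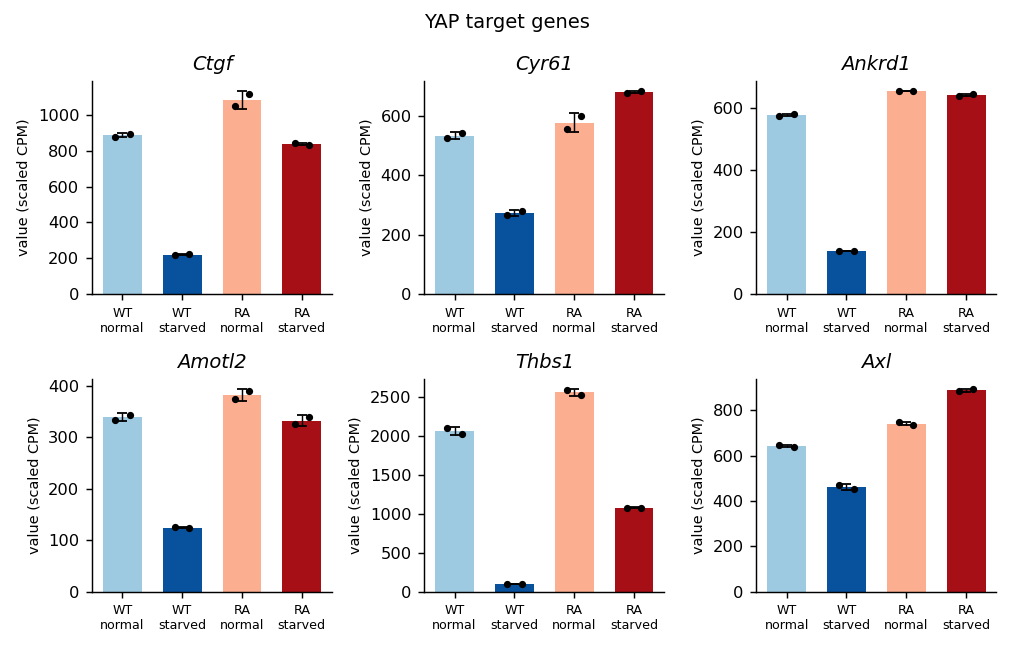
Values of the 6 YAP targets (y axis, scaled CPM, from 0) in the 4 groups; bars are means of 2 samples, error bars are SD and dots are samples. The dark blue bar of starved WT is the lowest in every panel, and starved RA is above it by between 1.93-fold (Axl) and 11.0-fold (Thbs1).

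The contractile apparatus was less uniform. Of its 10 genes, 7 fell and 2 rose in starved WT (39.2% and 39.3% of all genes), and in RA 8 rose and 1 fell (35.0% and 33.7%). Smooth muscle actin (Acta2), the marker actin of myofibroblasts, was at 1569.9 and 1606 in WT with glucose and at 1323 and 1373 without. In RA it went from 1698 and 1835 to 3865 and 3734. Starved RA was 2.82-fold above starved WT, a log2 difference of 1.49 (SE 0.0482, limma BH-adjusted p = 5.27e-14), whereas the difference in normal medium was 0.15 (limma BH-adjusted p = 0.0563). The normal-medium difference was called in edgeR (0.14, BH-adjusted p = 0.0118) and in DESeq2 (0.14, BH-adjusted p = 0.0105). Myosin light chain 9 (Myl9), the regulatory light chain that drives contraction, went from 145 and 156 to 131 and 131 in WT and from 151 and 172 to 259.6 and 256 in RA.

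Transgelin (Tagln), an actin-binding protein usually read together with Acta2, did not follow it. It rose in both lines, from 636 and 641 to 1467 and 1516 in WT and from 757 and 774 to 1453 and 1418 in RA. The starved groups differed by -0.05 (95% interval -0.14 to 0.03, limma BH-adjusted p = 0.237), and the interaction was -0.32 (SE 0.0556, limma BH-adjusted p = 0.000172), the lowest of the 32. Calponin 1 (Cnn1) also rose in both, from 136 and 134 to 164 and 170.2 in WT and from 142 and 146 to 249.5 and 242 in RA. Calponin 2 (Cnn2), the form of non-muscle cells, fell in WT from 487 and 505 to 259 and 256 and stood in RA at 493 and 548, then at 569 and 571. The 2 calponins thus moved in opposite directions in starved WT.

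The tropomyosins, coiled-coil proteins that lie along actin filaments, also differed among themselves. Tpm1 fell in both lines, from 1326 and 1322 to 463 and 491 in WT and from 1368 and 1423 to 1013 and 993 in RA. Its log2 change was -1.47 in WT (limma BH-adjusted p = 2.95e-15) and -0.48 in RA (limma BH-adjusted p = 2.45e-08). In WT the change was -0.69 for Tpm4 and -0.20 for Tpm2, and in RA it was 0.07 (not called, limma BH-adjusted p = 0.185) and 0.35. Caldesmon (Cald1), which holds myosin off actin, changed by -0.37 in WT and 0.29 in RA. The non-muscle myosin heavy chain Myh9 changed by 0.05 in WT (95% interval -0.05 to 0.14) and 0.61 in RA (limma BH-adjusted p = 2.2e-09). All 10 genes of the apparatus had a called interaction (50.6% of all genes), and Tagln was the only one with a negative sign.

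The cytoplasmic actins make up most filaments of a fibroblast. Beta-actin (Actb) was at 2692 and 2768 in WT with glucose and at 1055 and 1110.0 without, a 2.52-fold drop. The RA samples had 2661 and 3118, then 2316 and 2354, a 1.24-fold drop with no overlap. Gamma-actin (Actg1) went from 3623 and 3856 to 3017 and 3061 in WT and from 3733 and 4195 to 5147 and 5337 in RA. The log2 change in WT was -1.33 (SE 0.0603) for Actb and -0.30 (SE 0.0595) for Actg1. Actb is a common reference gene, and here starved RA was 2.16-fold above starved WT. The actin genes have near-identical coding sequences and many copies in the genome, and how reads that map to several were counted is not given in the sources used here, so the split between them is uncertain.

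**Figure D4:**
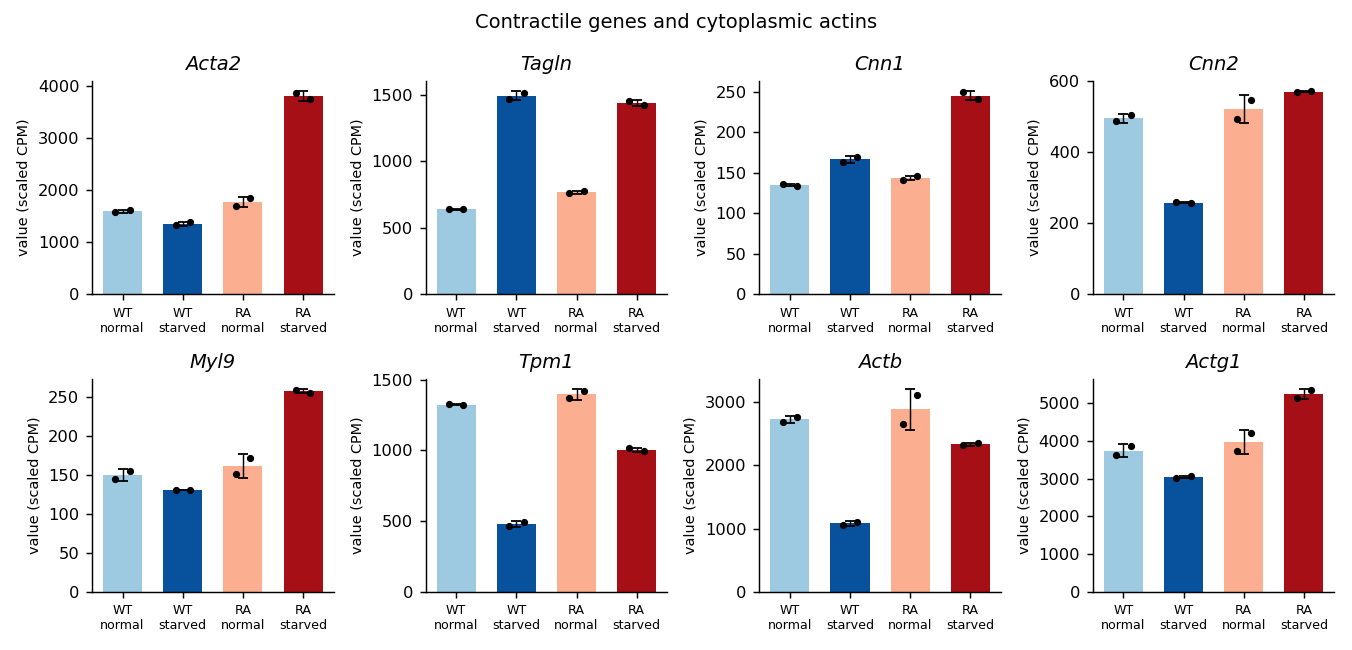
Values (y axis, scaled CPM, from 0) of 6 contractile genes and the 2 cytoplasmic actins in the 4 groups; bars are means of 2 samples, error bars are SD and dots are samples. Starved RA (dark red) is 2.82-fold above starved WT (dark blue) for Acta2 and 2.16-fold for Actb, while for Tagln the ratio is 0.963.

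Genes of focal adhesions and actin crosslinks fell in WT in 7 of 9 cases (39.2% of all genes) and rose in RA in 6 (35.0%). Tensin 1 (Tns1), which ties integrins to actin, had the largest difference between the lines of these 9. In WT it went from 81.3 and 78.5 to 28.5 and 30.6, and in RA from 92.4 and 89.3 to 101 and 97.5. Starved RA was 3.36-fold above starved WT, a log2 difference of 1.71 (SE 0.0473, limma BH-adjusted p = 5.67e-15). Tgfb1i1, the paxillin relative Hic-5, went from 86.3 and 88.0 to 70.5 and 70.4 in WT and from 78.1 and 84.5 to 142 and 143 in RA. Fblim1, a filamin-binding LIM protein, fell in both lines, from 114 and 109 to 35.5 and 36.3 in WT and from 105 and 108 to 70.4 and 67.1 in RA.

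Filamin A (Flna), which crosslinks actin into networks, was 1946 and 1860.1 in WT in normal medium and 1053 and 969 under starvation. In RA it was 1875 and 1747, then 1843 and 1864, groups that overlap. The changes were -0.91 in WT (limma BH-adjusted p = 2.51e-11) and 0.03 in RA (95% interval -0.07 to 0.14). Vinculin (Vcl), alpha-actinin 1 (Actn1) and zyxin (Zyx), components of adhesions under load, changed by -0.53, -0.42 and -0.46 in WT. In RA the first 2 rose, by 0.16 and 0.27, and Zyx changed by -0.10 (limma BH-adjusted p = 0.0506, called lower in 9 of the 17 alternatives tried). The LIM proteins Pdlim7 and Fhl2 changed little in WT, by 0.12 and 0.08, and rose by 0.60 and 0.24 in RA. The interaction was called for 8 of the 9 (50.6% of all genes), all positive. That of Fhl2 was 0.16 (limma BH-adjusted p = 0.0557) and was called higher in 5 of the 17 alternatives. It was 0.25 without RA normal replicate 2 and 0.08 without RA normal replicate 1.

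The regulators of both programmes changed by between -0.61 and 0.53 in the 2 lines. Srf went from 86.6 and 83.7 to 109 and 105 in WT and from 88.1 and 81.5 to 103 and 95.6 in RA. It rose in both lines, by 0.32 and 0.22, and its interaction was -0.10 (95% interval -0.25 to 0.05, limma BH-adjusted p = 0.239). Yap1 was 152 and 151 in WT in normal medium and 159.8 and 158 under starvation, against 153 and 156, then 228 and 215 in RA. It rose in RA by 0.51 (limma BH-adjusted p = 3.95e-09), and the WT change of 0.07 was not called (limma BH-adjusted p = 0.113).

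TAZ (Wwtr1) had the reverse order. It rose from 113 and 112 to 162 and 162 in WT and from 114 and 113 to 145 and 149 in RA, and was the only member called lower in starved RA than in starved WT, at -0.14 (limma BH-adjusted p = 0.00318). Tead1, a DNA-binding partner of both, fell in WT from 173 and 166 to 118 and 103 and stood in RA at 158 and 153, then at 154 and 155. Lats2, the kinase that inactivates YAP and is itself a YAP target, changed by -0.22 in WT and 0.17 in RA. In starved WT, therefore, Yap1 was not called, Wwtr1 was higher and Tead1 was lower, while all 6 YAP targets were lower.

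The genotypes were also compared within each medium. Under starvation 29 of 32 members were higher in RA and 1 was lower, against 30.8% and 32.1% of all genes (62.9% in either direction). The median difference was 0.83, against -0.01 over all genes, and 11 members were higher by at least 2-fold (5.45% of all genes), and none lower (1.25%). In normal medium 9 members were higher in RA and 0 lower, against 6.68% and 2.95% of all genes (9.63% in either direction), with a median of 0.09. Over all genes, 69.4% of these calls were higher as deposited and 40.4% with total-read scaling. They were Tagln, Actn1, Zyx, Tns1, Ctgf, Ankrd1, Amotl2, Thbs1 and Axl, by 0.15 to 0.31, so 5 of the 6 YAP targets were among them. At an unadjusted p under 0.05, 3 members were lower in RA in normal medium, and edgeR and DESeq2 called 0. The normal-medium count depends on single samples and on scaling: it was 4 without WT normal replicate 1, 14 without RA normal replicate 1, and with total-read scaling 7 members were higher and 2 lower (Tgfb1i1 and Pdlim7).

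Whether the starvation response differed between the lines was tested by the interaction, which was called for 30 of 32 members, 28 higher and 2 lower in RA, against 24.5% and 26.1% of all genes (50.6% in either direction). The median interaction was 0.72, against -0.01 over all genes and 0.76 over the 10 fibroblast markers, and 10 members passed 2-fold, all positive (5.04% of all genes are that far above 0 and 1.06% below). The interaction and the comparison of starved samples share their samples, so the 2 counts are not separate evidence. By role, the median was 1.44 for the 6 YAP targets, 0.71 for the contractile apparatus, 0.69 for adhesion and crosslinking genes and 0.42 for the 4 Hippo and TEAD regulators. The 2 lower interactions were Tagln and Wwtr1. That of Wwtr1 was -0.15 (limma BH-adjusted p = 0.0221), and edgeR did not call it (BH-adjusted p = 0.0732). It was also lost without WT normal replicate 2 or RA starved replicate 1 (-0.14 in both).

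**Figure D5:**
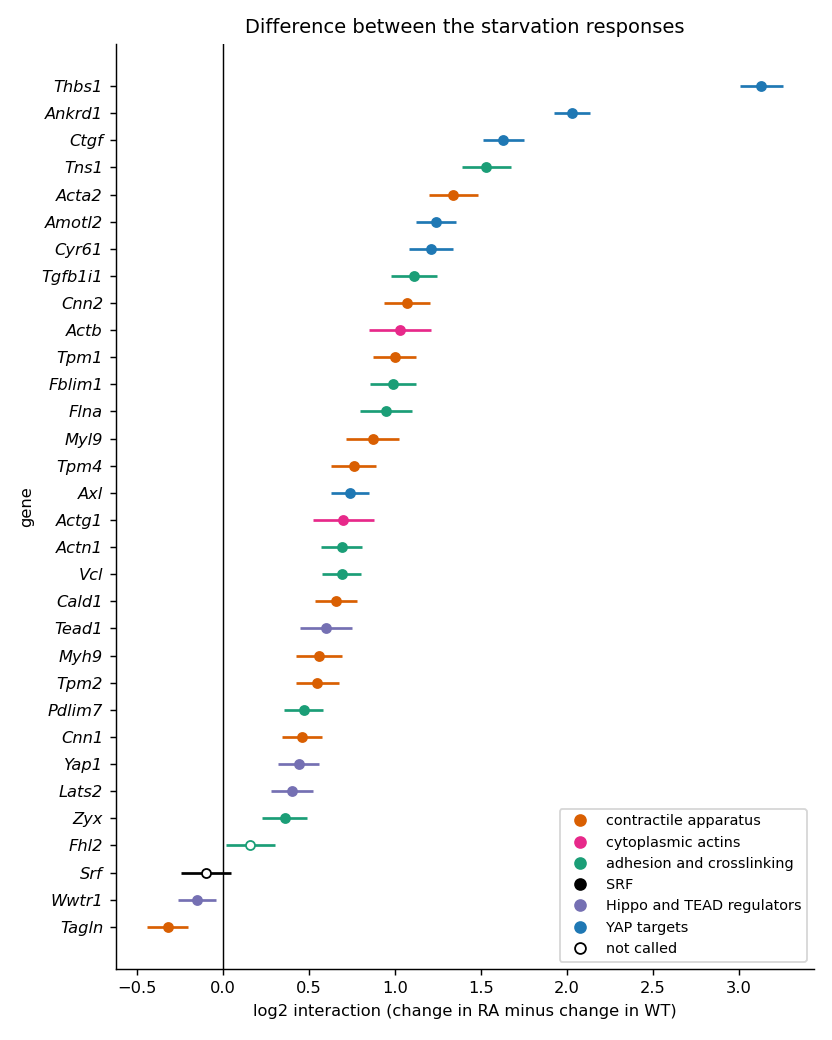
Interaction of each of the 32 genes (log2, change in RA minus change in WT), in order of size and coloured by role; bars are 95% intervals from limma and open circles were not called. Values run from -0.32 for Tagln to 3.13 for Thbs1, with 28 genes called above 0.

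Other genes of the same pathways were read from the same fit. Their lists came from general knowledge but were written with earlier results of these data known. Of 17 other YAP targets 16 were tested (Igfbp3 was under the filter). In WT 12 fell and 1 rose (39.2% and 39.3% of all genes), and in RA 10 fell and 4 rose (33.7% and 35.0%). The interaction was higher for 10 and lower for 2 (24.5% and 26.1%). Medians of these 16 were -0.59 for the change in WT, -0.17 for that in RA and 0.48 for the interaction. The 6 YAP targets among the members had -1.72, -0.11 and 1.44. Nuak2, a kinase of the AMPK family, fell most in WT (-2.35, limma BH-adjusted p = 8.64e-14), and its RA change was -0.94. The exception in WT was Gadd45a, a stress gene also induced by p53 and ATF4, which rose by 3.77 in WT and 3.58 in RA. Tissue factor (F3) had the largest interaction, 1.73 (SE 0.06), with a change of -0.64 in WT and 1.08 in RA, and the transcription factor Foxf2 the lowest (-0.81).

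Of 26 other SRF and actin cytoskeleton genes, 19 fell and 2 rose in WT, 14 fell and 6 rose in RA, and the interaction was higher for 19 and lower for 1, against the same shares of all genes. Lima1, an actin-bundling LIM protein, fell most in WT (-1.56), with -0.22 in RA. Pdlim5 rose most in WT (0.83) and rose by 1.48 in RA. Leiomodin 1 (Lmod1), an actin nucleator of smooth muscle that is also on the smooth muscle marker list, had the largest interaction, 1.80 (SE 0.132, limma BH-adjusted p = 9.08e-09), and the LIM protein Csrp2 the only lower one (-0.76). The median change of this list in RA was -0.22, where that of the 32 members was 0.23.

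Among 19 other Hippo pathway genes 11 rose and 7 fell in WT (39.3% and 39.2% of all genes), and 7 rose and 7 fell in RA (35.0% and 33.7%). The interaction was higher for 7 and lower for 7 (24.5% and 26.1%). Frmd6, an upstream activator of Hippo signalling, had both the largest fall in WT (-1.37) and the highest interaction (1.03). Amotl1, a scaffold related to Amotl2, rose most in WT (0.74), and Vgll4, which competes with YAP for TEAD, had the lowest interaction (-0.65).

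Several members share exon bases with other genes, and how the reads were assigned by strand is not given in the sources used here. In GENCODE M21 (GRCm38, not the build of the reads), 23.2% of the exon bases of Ctgf lie opposite Gm15270, whose mean value was 352 in WT in normal medium, 87.2 in starved WT, 409 in RA in normal medium and 316 in starved RA. That is the course of Ctgf, so the 2 were not read as separate genes. Gm29233 opposite Thbs1 (104, 4.74, 127 and 57.1 in the same order) and Gm26586 opposite Tpm4 (213, 131, 219 and 223) likewise tracked their partners. Of Vcl, 25.5% of the exon bases lie opposite Ap3m1 (244, 179, 246 and 257), and Tagln shares 62.4% with the antisense gene Gm48529 and Lats2 shares 42.4% with Gm49361 on the same strand.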

How the data were processed

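RNA of MEFs was measured in 8 libraries, 2 per group, grouped by title, per the labels. The authors prepared TruSeq v2 polyA libraries, sequenced them paired-end on an Illumina HiSeq and mapped the reads with TopHat2 (version 2.0.9) to mm9; bedtools and edgeR are also named in the submitters' processing notes. The counter, annotation, strand handling and filters are not given in the sources used here. The deposited values are a signal, reads per gene divided by a scaled library size and put on the CPM scale, with columns that sum to 965845 to 1029723. Column names say minus and plus, read as normal medium and glucose starvation after the notation of the study. All nonzero values (100%) were whole reads within 0.01 of a read, so reads were recovered. Of the low counts (1 to 9), 78.2 to 80.5% were even, so recovered reads cannot be taken as independent counts, as edgeR, DESeq2 and a chi-square on reads take them. Intervals cover the spread between samples, and depth covers counting error only.

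The filter kept genes that reached 1 in 2 or more samples. On log2(value + 1), limma (version 3.58.1, R version 4.3.3) was fitted to all 8 samples with a mean for each group and a trended eBayes step. Tests were 2-sided, p-values were adjusted by the Benjamini-Hochberg (BH) method across the 16232 genes of each of 5 contrasts, with 0.05 as the threshold for a call. Plain CPM had been planned for; since the library sizes turned out to be scaled, the values were kept and the same test was used. Alternatives were other pseudocounts, no filter, total-read and median-ratio scaling, the replicate number as a block, the recovered reads in edgeR (version 4.0.16) and in DESeq2 (version 1.42.0), a threshold of 0.01 and leaving out each sample. The test was tried on simulated data first.

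The members, their roles and the other gene lists were chosen with earlier results of these data known. All members are named; of each other pathway list, the called genes with the highest and lowest change in starved WT and the highest and lowest interaction are named. Of the rows, 26 have names turned into dates by a spreadsheet, and none of these is a member. One further gene list is not reported here.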

Additional observations from a re-analysis of the deposited data

Results flagged for a closer look

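The starvation response differed between WT and RA, by the test of the difference itself (limma interaction, BH-adjusted p under 0.05), for 30 of the 32 members, and 50.6% of all genes tested did so too. In the contractile apparatus the log2 interactions were 1.34 for Acta2, -0.32 for Tagln, 0.46 for Cnn1, 1.07 for Cnn2, 0.87 for Myl9, 0.56 for Myh9, 0.66 for Cald1, 1.0 for Tpm1, 0.55 for Tpm2 and 0.76 for Tpm4. Among the cytoplasmic actins they were 1.03 for Actb and 0.70 for Actg1. Adhesion and crosslinking genes had 0.69 for Actn1, 0.69 for Vcl, 0.95 for Flna, 0.36 for Zyx, 1.53 for Tns1, 0.99 for Fblim1, 1.11 for Tgfb1i1 and 0.47 for Pdlim7. The Hippo and TEAD regulators had 0.44 for Yap1, -0.15 for Wwtr1, 0.60 for Tead1 and 0.40 for Lats2. The YAP targets had 1.63 for Ctgf, 1.21 for Cyr61, 2.03 for Ankrd1, 1.24 for Amotl2, 3.13 for Thbs1 and 0.74 for Axl. Groups of 2 samples are too small to look for outlying samples. Recovered reads of the 2 replicates differed most in starved RA, with a chi-square per degree of freedom of 14.6. It was 3.33 in WT and 5.99 in RA in normal medium, and 5.6 in starved WT. Most low counts were even, so only the order of these values was read, not their size. Filip1l, on the list of other SRF and actin cytoskeleton genes, was at 502 and 1929 in the starved RA samples.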

How the results depend on the processing

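The 160 single values (32 members in 5 contrasts) were recomputed under 17 alternatives, 9 of them other settings and the rest leaving out 1 sample, which gave 2720 values. None of the calls changed direction, 37 values lost their call and 39 gained one. The counts of 24 members lower in starved WT and 29 higher in starved RA than in starved WT held under all 17. The count of members higher in RA in normal medium, 9, was 5 without the filter and 14 with the replicate block, and ran from 4 to 14 when 1 sample was left out. That of members lower there, 0, was 2 with total-read scaling. Members lower in starved RA than in starved WT, 1, were 2 with median-ratio scaling and with the replicate block, and 1 to 2 when 1 sample was left out. Lower interactions, 2, were 1 with total-read scaling, with edgeR and at a threshold of 0.01, and 1 to 2 when 1 sample was left out. The cause was not tested. Leaving out a sample leaves 1 in its group, assumed to vary like the others.

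Groups share replicate numbers in the labels, but nothing says that a number marks a shared culture or day. Same-numbered samples deviated together with correlations of -0.008 to 0.157 over the 6 pairs of groups. This does not settle whether a number marks a shared culture or day. Over all genes in normal medium, 1371 were called higher and 688 lower in RA with the block, against 1084 and 479 without it. With the replicate number as a block, no other count of members moved by more than 1.5 times. Total-read scaling moved the median of all genes by at most 0.07, and with it the share of calls higher in RA in normal medium over all genes went from 69.4% to 40.4%, and in the interaction from 48.4% to 58.1%.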
